A study of Homo sapiens with 6 samples.

Results

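The genes described here are 10 regulators of the balance between epithelial and mesenchymal cell states. They are the repressors SNAI1, SNAI2, ZEB1, ZEB2 and TWIST1, which drive epithelial-mesenchymal transition (EMT), and the epithelial genes GRHL1, GRHL2, OVOL2, ESRP1 and EPCAM. They were taken by name from the 47470 genes listed in the count tables, where all 10 are present. RNA was sequenced from wild-type HEK293T cells, a transformed human embryonic kidney line, that were left untreated or had been kept in 1 mM valproic acid (VPA) for 1 day. VPA inhibits histone deacetylases. There were 3 libraries per condition, all from 1 cell line, and the sources used here do not say whether they came from separate cultures, so the p-values measure the spread between these libraries only.

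In EMT, epithelial cells lose their junctions and gain a migratory form. The zinc finger factors SNAI1, SNAI2, ZEB1 and ZEB2 bind E-box sequences and recruit deacetylase-containing corepressors to epithelial genes such as CDH1, and the basic helix-loop-helix factor TWIST1 acts beside them. GRHL and OVOL factors hold the epithelial state and repress ZEB genes, ESRP1 directs epithelial splicing, and EPCAM is an epithelial adhesion protein. HEK293T cells carry a mixture of epithelial, mesenchymal and neuronal genes.

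Members on both sides of this balance were higher after VPA, and the only falls were in the repressors SNAI2 and ZEB2. Neither fall passed the test when ribosomal protein genes set the scale. There SNAI2 was at 0.031 and ZEB2 at -0.042 on the log2 scale (adjusted p = 0.648 and 0.588 in edgeR). The fall of SNAI2 was also lost with library totals (-0.11, adjusted p = 0.111). Of the 8 members with enough counts to be tested, 5 rose and 2 fell at an adjusted p under 0.05 in edgeR's quasi-likelihood test. By comparison, 32.9% of all 15298 genes tested were higher and 30.0% lower by that rule. SNAI1, OVOL2 and EPCAM also passed a log2 fold change of 1, the fold change threshold of the study, and none of the members was lower by that much. Among all genes tested 12.0% were called higher and 0.503% lower with both thresholds. The 3 called members were also the 3 tested members with a mean under 50 normalized counts, a class in which 29.4% of genes were called higher. The other 5 tested members had larger counts and none was called, in a class where 7.56% were called higher.

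**Figure D1:**
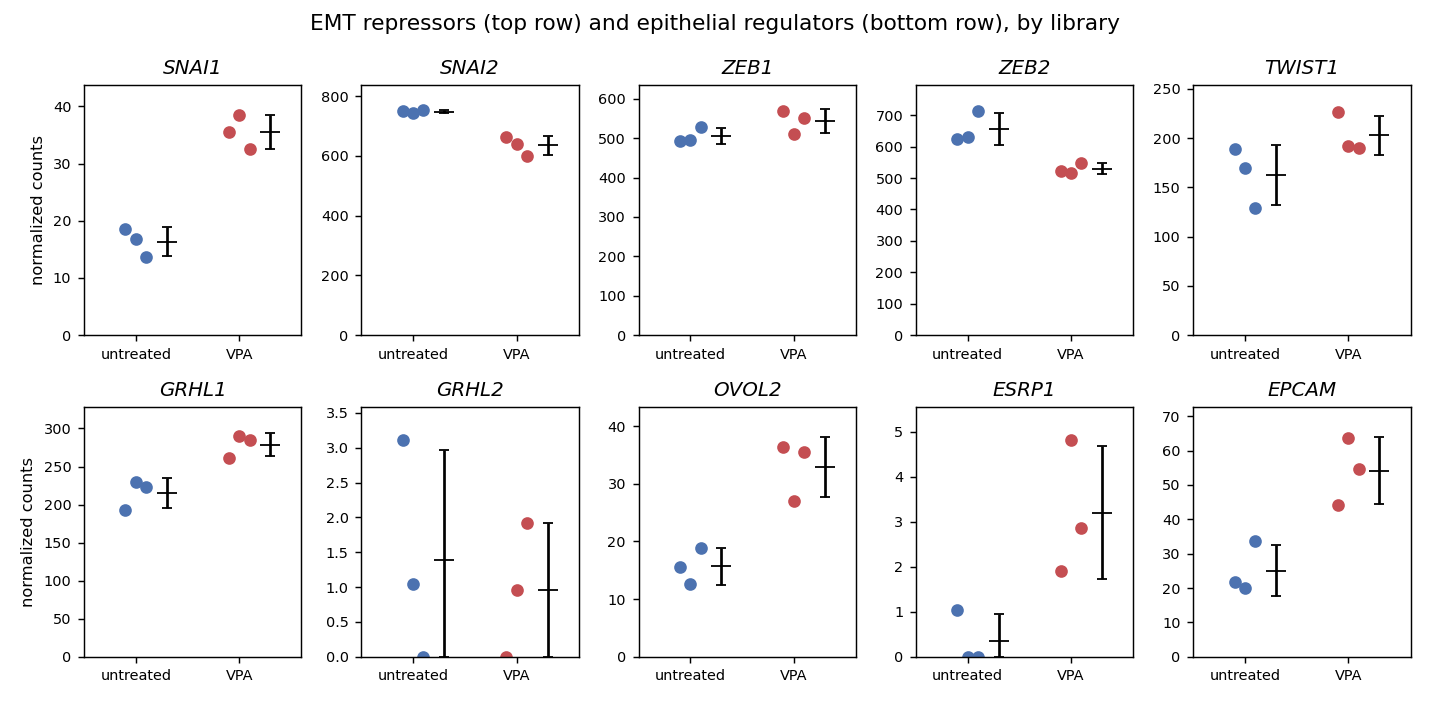
Normalized counts (vertical axis, TMM-scaled counts from 0) of each member in the 3 untreated (blue) and 3 VPA-treated (red) libraries, with the mean and SD in black, cut at 0. SNAI1, OVOL2 and EPCAM lie higher in every VPA-treated library, SNAI2 and ZEB2 lie lower with this scaling, and GRHL2 and ESRP1 stay below 6 normalized counts.

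Depth was even, with 18622267 to 18828495 counts on genes per library. The normalization (TMM, which assumes that most genes do not change) set the effective size of the VPA-treated libraries above that of the untreated ones, with factors of 1.05 in all 3 against 0.950 to 0.965. A gene with equal raw counts in both conditions is therefore read as lower after VPA. All 9 marker genes chosen for HEK293T cells, among them PAX2 and NEFM, had enough counts to be tested. Of these 6 rose and 3 fell (EYA1 by 0.68, VIM by 0.27 and SALL1 by 0.16 on the log2 scale). With both thresholds 3 were called higher (PAX2 by 2.26, KRT8 by 1.37 and NEFL by 1.06) and 0 lower. The summed level of all 9 was 18853 to 19397 normalized counts in untreated and 21961 to 23383 in VPA-treated libraries. NEFM alone went from a mean of 4348 to 7952. In bulk RNA, a change in the share of cells that express a gene and a change in RNA per cell cannot be told apart.

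Of the paired zinc finger repressors ZEB1 and ZEB2, ZEB2 fell and ZEB1 did not pass the test with TMM. ZEB1, at 31318417 to 31529804 of chromosome 10 (plus strand, RefSeq coordinates on GRCh38.p14 as for all genes here), had 476, 474 and 503 counts in the untreated and 593, 530 and 576 in the VPA-treated libraries. The raw counts did not overlap, but after scaling they did, at 506 ± 19.4 and 543 ± 29.7 normalized counts (SD, n = 3 each), and the log2 fold change of 0.10 ± 0.063 (standard error) did not pass the test (adjusted p = 0.156 in edgeR). ZEB2, at 144384081 to 144520119 of chromosome 2 (minus strand), had 603, 602 and 680 counts against 546, 535 and 573. It fell in normalized counts (mean ± SD, n = 3 each) from 656 ± 50.1 to 529 ± 17.4, with every VPA-treated library below every untreated one. On the log2 scale the change was -0.31 ± 0.063 (standard error, adjusted p = 0.000218 in edgeR).

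The result for each of these genes depended on the scaling. With upper quartile scaling ZEB1 was higher by 0.17 (adjusted p = 0.0244 in edgeR) and with library totals by 0.24 (adjusted p = 0.00311). With ribosomal protein genes as the scale ZEB1 was higher by 0.37, while ZEB2 was at -0.042 (adjusted p = 0.588 in edgeR). These scalings raised the median log2 fold change of all genes tested from 0.0058 to 0.071, 0.14 and 0.27. They shift all genes together, so a fall given here of 0.27 or less in size, such as those of SNAI2, VIM, FBXL14 and several neighbouring genes, would move to about 0 or above on the ribosomal protein scale. The ratio of ZEB1 to ZEB2 counts within a library is free of the scaling. It was 0.789, 0.787 and 0.740 in the untreated and 1.09, 0.991 and 1.01 after VPA, which is a 1.33-fold shift towards ZEB1 without overlap. The exact permutation test gave p = 0.1 (two-sided), the smallest p that 3 libraries against 3 allow. This ratio was 1 of 4 computed after the values were seen, all with that p, and the Benjamini-Hochberg value over the 4 was also 0.1.

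The start of ZEB1 lies inside ZEB1-AS1, a long noncoding RNA on the opposite strand that is counted as a gene of its own. ZEB1-AS1 had 106, 82 and 78 counts in the untreated and 167, 142 and 140 in the VPA-treated libraries. It rose in normalized counts (mean ± SD, n = 3 each) from 92.5 ± 15.1 to 144 ± 14.3, for a log2 change of 0.63 ± 0.13 (standard error, adjusted p = 0.000158 in edgeR). Its counts per ZEB1 count went from 0.223, 0.173 and 0.155 to 0.282, 0.268 and 0.243, a 1.45-fold shift (exact permutation test, p = 0.1). The kit marks strand, but the strand setting of the counting is not given in the sources used here, so reads of the pair may not be fully separated. ZEB2-AS1, the antisense partner of ZEB2, was listed at 1, 0 and 1 counts in untreated and 0, 1 and 0 in VPA-treated libraries.

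The 250 bases before the most upstream RefSeq start of ZEB1 (chr10:31318167-31318416, plus strand, GRCh38.p14) are shown because this stretch before ZEB1 lies within the span of ZEB1-AS1. Capitals mark the E-box core CACCTG, or CAGGTG on the other strand, the sequence that SNAI and ZEB factors prefer.
ZEB1 upstream: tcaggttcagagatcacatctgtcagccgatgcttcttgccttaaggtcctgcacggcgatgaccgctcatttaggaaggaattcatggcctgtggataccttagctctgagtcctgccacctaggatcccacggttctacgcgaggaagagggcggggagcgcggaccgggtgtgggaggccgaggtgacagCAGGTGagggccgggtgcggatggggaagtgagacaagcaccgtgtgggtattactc

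The match begins 57 bases before the start. Of the 7 ZEB1 start sites in the RefSeq promoter table, 2 held this motif in the 250 bases before them, as did 17.5% of all 35116 promoter windows of that length. The table matched 3 of the 10 members (ZEB1, ZEB2 and GRHL1), and the ZEB2 and GRHL1 windows held no match. A match of letters says nothing of binding in these cells.

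ZEB1 and ZEB2 messages are also classic targets of the miR-200 family, whose mature forms are shown, as RefSeq gives them on GRCh38.p14, to show that they fall into 2 seed groups. Capitals mark the seed, bases 2 to 8 from the 5′ end.
miR-200b-3p: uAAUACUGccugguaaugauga
miR-200c-3p: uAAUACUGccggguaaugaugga
miR-429: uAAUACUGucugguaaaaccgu
miR-200a-3p: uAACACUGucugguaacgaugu
miR-141-3p: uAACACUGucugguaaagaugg

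Of the 5 antisense and miRNA host transcripts listed, 2 were tested and 1, ZEB1-AS1, rose. The first 3 miRNAs share 1 seed and the last 2 the other, which differs in a single base. The genes for all 5 miRNAs and the host transcript MIR200CHG are listed at 0 in every library. MIR205HG, the host of miR-205, which is not of this family, is also listed at 0. Short RNAs are poorly captured by libraries of this kind, so the counts do not give the level of the mature miRNAs.

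SNAI1 and SNAI2, the Snail and Slug repressors, moved in opposite directions, except with ribosomal protein scaling, where SNAI2 was near 0. SNAI1, at 49982980 to 49988886 of chromosome 20 (plus strand), had 18, 16 and 13 counts in the untreated and 37, 40 and 34 in the VPA-treated libraries. All 3 VPA-treated libraries lay well above the highest untreated one. It rose in normalized counts (mean ± SD, n = 3 each) from 16.3 ± 2.52 to 35.5 ± 2.99, 2.16-fold, with a log2 change of 1.11 ± 0.23 (standard error, edgeR adjusted p = 0.000201). The gene rests on 158 counts over the 6 libraries, and without untreated replicate 3 its log2 fold change was 0.99, just under the fold change threshold.

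SNAI2, at 48917598 to 48921429 of chromosome 8, had the highest level of the members per length of transcript. It was counted 724, 710 and 718 times in the untreated and 692, 666 and 628 times in the VPA-treated libraries. The level fell in normalized counts (mean ± SD, n = 3 each) from 749 ± 5.30 to 635 ± 31.4, for a log2 change of -0.24 ± 0.056 (standard error, adjusted p = 0.000920 in edgeR). The fall was small, and it was lost with library totals (-0.11, adjusted p = 0.111) and turned to 0.031 with ribosomal protein scaling (adjusted p = 0.648). The ratio of SNAI1 to SNAI2 counts, which no scaling affects, was 0.0249, 0.0225 and 0.0181 in untreated and 0.0535, 0.0601 and 0.0541 in VPA-treated libraries, a 2.58-fold shift without overlap (exact permutation test, p = 0.1). Even after it, SNAI1 stood far below SNAI2.

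SNAI3, the third Snail gene, had 7, 13 and 7 counts in untreated and 28, 35 and 33 in VPA-treated libraries. It rose 3.24-fold, with a log2 change of 1.70 ± 0.28 (standard error, adjusted p = 2.14e-05 in edgeR). SCRT1 of the related Scratch genes, neuronal repressors, had 0, 0 and 1 counts against 6, 3 and 7 and was not tested.

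TWIST1, a repressor known from cranial and mesodermal development, maps to 19113047 to 19117636 of chromosome 7 (minus strand). Its counts were 183, 162 and 123 in the untreated and 236, 199 and 199 in the VPA-treated libraries. It rose in normalized counts (mean ± SD, n = 3 each) from 163 ± 30.7 to 203 ± 20.2, and the lowest VPA-treated library was just above the highest untreated one. On the log2 scale the change was 0.32 ± 0.12 (standard error, adjusted p = 0.0238 in edgeR). The adjusted p no longer passed in DESeq2 (adjusted p = 0.108), without untreated replicate 3 (0.17, adjusted p = 0.192) and without VPA-treated replicate 1 (0.23, adjusted p = 0.111). TWIST2, its paralog, had a tighter spread, from 132 ± 6.08 to 180 ± 3.75 normalized counts (SD, n = 3 each), and rose by 0.45 on the log2 scale (adjusted p = 0.000373 in edgeR).

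**Figure D2:**
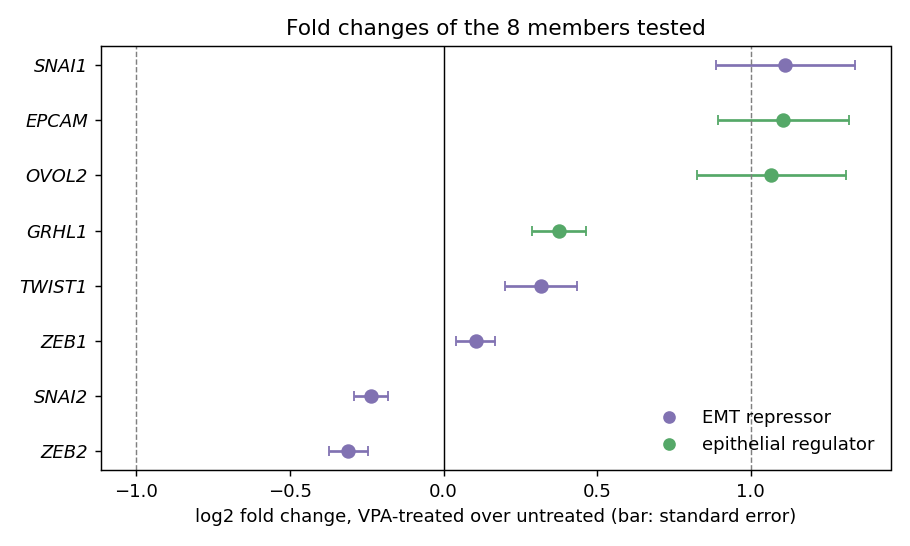
Log2 fold change of the 8 tested members, VPA-treated over untreated (horizontal axis, bars show the standard error), with repressors in purple, epithelial regulators in green and the thresholds of -1 and 1 dashed. SNAI1, EPCAM and OVOL2 sit just above 1 with error bars that cross it, ZEB1 is near 0, and ZEB2 and SNAI2 are below 0 with TMM (SNAI2 is at 0.031 with ribosomal protein scaling).

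Among the epithelial regulators, all 3 that could be tested rose. OVOL2, a zinc finger repressor of ZEB genes, maps to 18024152 to 18059188 of chromosome 20 (minus strand). It had 15, 12 and 18 counts in the untreated and 38, 28 and 37 in the VPA-treated libraries, 148 counts in all. The level rose in normalized counts (mean ± SD, n = 3 each) from 15.7 ± 3.17 to 32.9 ± 5.19, 2.10-fold, with a log2 change of 1.07 ± 0.24 (standard error, edgeR adjusted p = 0.000625).

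Every VPA-treated library had more OVOL2 than every untreated one, but the fold was close to the threshold and lay under it without untreated replicate 2 (0.93) or VPA-treated replicate 1 (0.99). In GENCODE 44 the gene overlaps SNX5 on the same strand and MGME1 on the opposite strand, both counted far more often. SNX5 fell by 0.33 on the log2 scale (adjusted p = 2.41e-07 in edgeR) and MGME1 was at -0.0014 (adjusted p = 0.982). SNORD17, which also overlaps on the same strand, fell by 0.29 (adjusted p = 0.00543 in edgeR). Totals per gene do not show which gene the reads of a shared stretch came from, and the strand setting is not given. Whether such reads add to the OVOL2 counts was not tested. OVOL1, the paralog of OVOL2, was near the floor at 1, 1 and 1 counts against 0, 1 and 3.

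GRHL1, a Grainyhead-like factor of the epidermis, maps to 9951693 to 10002277 of chromosome 2 (plus strand). Its counts were 186, 219 and 212 in the untreated and 273, 301 and 297 in the VPA-treated libraries. It rose in normalized counts (mean ± SD, n = 3 each) from 215 ± 19.5 to 279 ± 15.0, for a log2 change of 0.38 ± 0.087 (standard error, adjusted p = 0.000721 in edgeR), without overlap between conditions. The paralog GRHL3 had 4, 12 and 5 counts against 18, 22 and 21 and rose 2.64-fold (log2 fold change 1.40 ± 0.35, SE, adjusted p = 0.00158 in edgeR).

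EPCAM, the epithelial cell adhesion molecule, maps to 47369311 to 47387020 of chromosome 2 (plus strand). It had 21, 19 and 32 counts in the untreated and 46, 66 and 57 in the VPA-treated libraries. The level rose in normalized counts (mean ± SD, n = 3 each) from 25.1 ± 7.43 to 54.1 ± 9.76, 2.15-fold, with a log2 change of 1.11 ± 0.21 (standard error, edgeR adjusted p = 0.000117). The spread within each condition was wide, and the fold dropped under the threshold without untreated replicate 2 (0.96) or VPA-treated replicate 2 (0.97).

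The other two epithelial regulators were close to absent from the counts. GRHL2, at 101492439 to 101681200 of chromosome 8, had 3, 1 and 0 counts in untreated and 0, 1 and 2 in VPA-treated libraries, and no change was detectable at 7 counts in all. ESRP1, the epithelial splicing factor, at 94641174 to 94707466 of chromosome 8, had 1, 0 and 0 counts against 2, 5 and 3. Its 10 counts to 1 gave a ratio of 9.19 after scaling, with an exact binomial 95% interval of 1.31 to 399 that covers counting error only.

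Neither gene passed the filter on low counts. Without the filter ESRP1 had a log2 change of 2.79 ± 1.16 (standard error, adjusted p = 0.0408 in edgeR), and DESeq2 gave it an adjusted p of 0.120. ESRP2, its paralog, was the better counted of the pair, with 25, 13 and 29 counts in untreated and 33, 46 and 37 in VPA-treated libraries. ESRP2 rose 1.59-fold (log2 fold change 0.67 ± 0.24, SE, adjusted p = 0.0213 in edgeR).

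Levels were compared between the members per kilobase of the MANE Select transcript, as TMM-scaled CPM (counts scaled to a common library size) per kilobase. In untreated cells SNAI2 stood highest at 18.3 ± 0.130 CPM per kilobase (SD, n = 3). TWIST1 at 5.33 ± 1.01 and ZEB1 at 4.55 ± 0.175 followed, and these 2 overlapped between libraries. ZEB2 at 3.78 ± 0.289 and GRHL1 at 3.22 ± 0.292 came next, and each range lay apart from its neighbours in the order. EPCAM at 0.866 ± 0.257, OVOL2 at 0.528 ± 0.107 and SNAI1 at 0.512 ± 0.0789 were lower, with OVOL2 and SNAI1 overlapping. GRHL2 at 0.0141 ± 0.0161 and ESRP1 at 0.00489 ± 0.00847 were at the bottom and overlapped.

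After VPA the highest members remained repressors, with SNAI2 at 15.6 ± 0.769 CPM per kilobase and TWIST1 at 6.64 ± 0.663. GRHL1 reached 4.17 ± 0.225 and lay above ZEB2 at 3.05 ± 0.100. EPCAM at 1.87 ± 0.337, SNAI1 at 1.11 ± 0.0937 and OVOL2 at 1.11 ± 0.175 were still below all of these.

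The groups did not overlap in normalized counts for 7 of the 8 tested members, with 5 higher and 2 lower in every VPA-treated library. Among all genes tested 34.8% were separated upwards and 31.0% downwards in this way. Of the members called, SNAI1 was most like SPINT1 across the 6 libraries (Pearson's r of log2 CPM 0.992), OVOL2 most like PATJ (0.966) and EPCAM most like TWIST2 (0.953), among 116 related genes. These values are a description, since any genes that move with treatment correlate over these libraries.

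**Figure D3:**
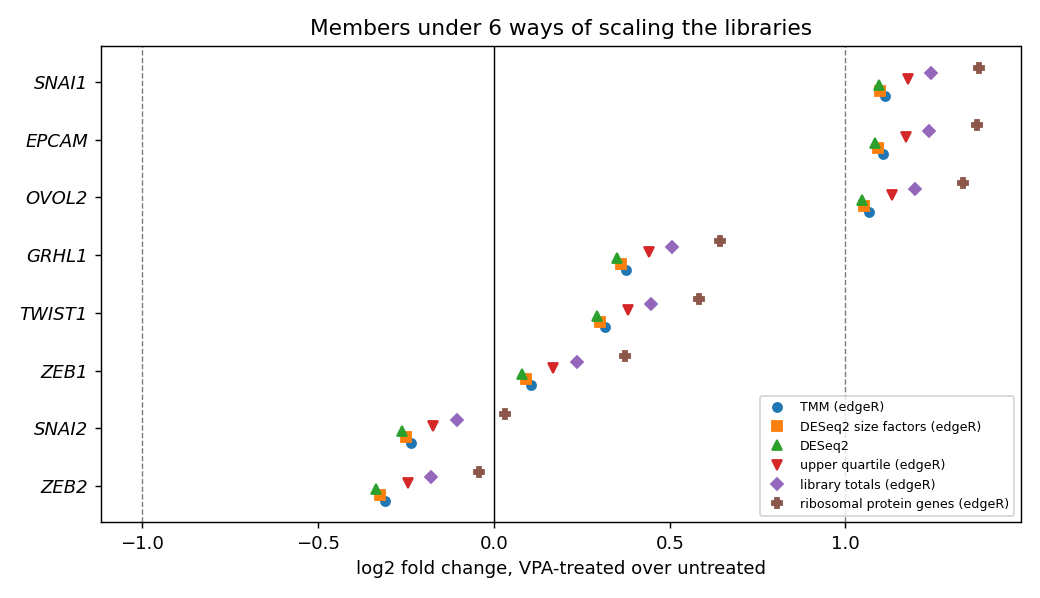
Log2 fold change of each tested member (horizontal axis, VPA-treated over untreated) under 6 ways of scaling the libraries, marked by symbol, with -1 and 1 dashed. SNAI1, EPCAM and OVOL2 stay above 1 under all 6, while SNAI2 runs from below 0 to 0.031 with ribosomal protein scaling and ZEB2 comes close to 0.

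Genes that the members act on, act with or resemble were read from lists chosen for their roles. Together these lists held 131 genes, of which 105 were tested, 56 rose and 26 fell. With both thresholds 25 were called higher and 0 lower. Over all 15298 genes tested, 32.9% rose and 30.0% fell, and 12.0% were called higher and 0.503% lower. Among genes with a mean under 50 normalized counts 29.4% were called higher, and among the others 7.56%. The counts of each list below are to be read beside these shares.

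The epithelial effector genes, which repressors of this kind hold down, were mostly higher. Of 32 genes 23 were tested, 16 rose and 3 fell, with a median log2 fold change of 0.53 against 0.0058 for all genes tested. The 7 called higher included CDH1, the epithelial cadherin and textbook target of SNAI1 and ZEB1, which had 143, 172 and 169 counts in untreated and 628, 673 and 688 in VPA-treated libraries. CDH1 rose 3.78-fold, with a log2 change of 1.92 ± 0.079 (standard error, adjusted p = 1.08e-14 in edgeR), a larger fold than that of any of the 8 tested members.

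TJP3, a tight junction scaffold, went from 20, 16 and 15 counts to 172, 179 and 178 and rose 9.48-fold. CDH3, the placental cadherin beside CDH1 on chromosome 16, went from 30, 44 and 31 counts to 273, 274 and 271 and rose 7.14-fold. MAL2, a protein of apical transport, rose 3.68-fold from few counts. The effector genes did not all follow. DSP, which encodes desmoplakin, fell by 0.41 on the log2 scale (adjusted p = 6.68e-09 in edgeR). MARVELD2 fell by 0.47 (adjusted p = 0.00796 in edgeR) and EPS8L1 by 0.29 (adjusted p = 0.0317). KRT7 and KRT19 are listed at 0 in every library.

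The mesenchymal genes were mostly higher as well. Of 22 genes 18 were tested, 15 rose and 2 fell, with a median log2 fold change of 0.66 and 8 called higher. POSTN (13.4-fold), MMP2 (9.26-fold), COL3A1 (5.25-fold) and COL1A1 (2.97-fold), all genes of the matrix or its turnover, led. The 2 that fell were the textbook mesenchymal markers CDH2, the neural cadherin, and VIM, the intermediate filament vimentin. CDH2 had 1931, 2065 and 1948 counts in untreated and 1682, 1653 and 1653 in VPA-treated libraries, for a log2 change of -0.37 ± 0.044 (standard error, adjusted p = 2.31e-07 in edgeR). VIM fell by 0.27 on the log2 scale (adjusted p = 5.23e-06 in edgeR).

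The ratio of CDH1 to CDH2 counts, often read as an index of EMT, was 0.0741, 0.0833 and 0.0868 in untreated and 0.373, 0.407 and 0.416 in VPA-treated libraries. This was a 4.91-fold shift towards CDH1 without overlap (exact permutation test, p = 0.1). Markers chosen for fibroblasts moved with the mesenchymal list. All 3 of DCN, LUM and PDGFRA were called higher, and their summed level was 57.7 to 65.2 normalized counts in untreated and 351 to 364 in VPA-treated libraries. DCN had 0, 0 and 3 counts in the untreated libraries. The part of such cells in the result was not tested. Markers of blood cells (34.5 to 37.8 against 16.3 to 24.9), endothelium (0 to 4.19 against 17.2 to 24.1) and hepatocytes (0 to 3.15 against 0 to 1.92) had low summed levels, with ALB at 0, 0 and 1 counts against 1, 0 and 0. Of the blood markers CD68, the only 1 tested, was called lower, by 1.21 on the log2 scale (adjusted p = 9.97e-05 in edgeR). PTPRC went the other way, from 0, 0 and 0 counts to 5, 4 and 3. CD3E had 0, 0 and 0 counts against 0, 0 and 1. PTPRC and CD3E had too few counts to be tested. Of the endothelial markers VWF was called higher, from 0, 3 and 0 counts to 13, 20 and 17 (adjusted p = 1.42e-05 in edgeR).

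**Figure D4:**
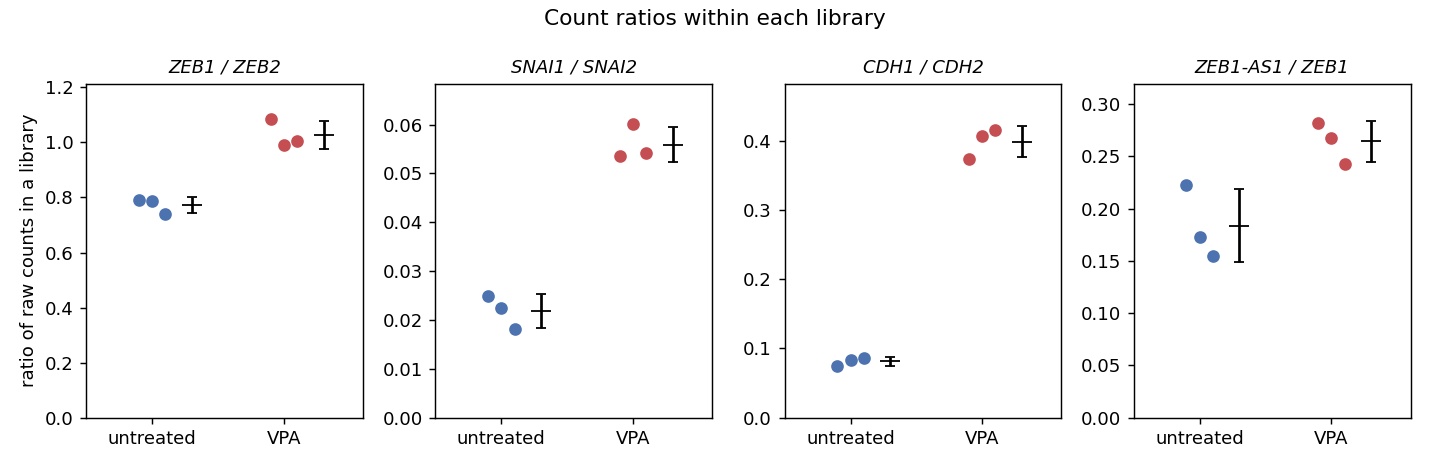
Ratio of raw counts of gene pairs within each library (vertical axis, no unit, from 0), untreated in blue and VPA-treated in red, with the mean and SD in black. All 4 ratios are higher in every VPA-treated library, by 1.33-fold for ZEB1 to ZEB2, 2.58-fold for SNAI1 to SNAI2, 4.91-fold for CDH1 to CDH2 and 1.45-fold for ZEB1-AS1 to ZEB1.

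The other epithelial regulators were mostly higher too. Of 16 genes 9 were tested, 7 rose and 1 fell, with a median of 0.67 on the log2 scale. TFCP2L1, a Grainyhead-family factor of kidney epithelium, went from 179, 196 and 179 counts to 487, 492 and 467 and rose 2.40-fold (adjusted p = 4.06e-12 in edgeR). TFAP2C rose 1.82-fold and KLF4 1.34-fold. The 1 that fell was TFAP2A, the paralog of TFAP2C, with a log2 fold change of -0.85 (adjusted p = 1.97e-12 in edgeR).

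Other EMT transcription factors and their partners went both ways. Of 21 genes 19 were tested, 8 rose and 7 fell, and the median was 0.080. Those with few counts led the rise, among them FOXC2 (3.79-fold), SNAI3 (3.24-fold) and PRRX1 (3.23-fold, from 28, 25 and 22 counts to 87, 86 and 91). FOXQ1 rose less, 1.59-fold (adjusted p = 0.0420 in edgeR). Its counts of 23, 14 and 9 in untreated and 23, 28 and 29 in VPA-treated libraries overlapped. The abundant developmental factors FOXC1 and SOX4 fell, with log2 fold changes of -0.66 and -0.48. TCF4, an E protein that pairs with TWIST1, fell by 0.16 (adjusted p = 0.0214 in edgeR).

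The corepressors and stability partners of SNAI and ZEB factors fell more often than they rose with TMM, but not with library totals or ribosomal protein scaling. All 22 were tested, 3 rose and 11 fell, with a median of -0.12. The balance was 7 higher and 2 lower with library totals and 13 higher and 0 lower with ribosomal protein scaling. LOXL2, a lysyl oxidase that stabilizes SNAI1 protein, was the 1 called, from 180, 180 and 207 counts to 440, 402 and 415 (2.04-fold, adjusted p = 4.17e-10 in edgeR). Its fold lay just over the threshold and the call was lost without untreated replicate 1, untreated replicate 2 or VPA-treated replicate 1. AJUBA, a corepressor scaffold of SNAI1, rose 1.37-fold and FBXO45, a ubiquitin ligase subunit, 1.17-fold. BMI1 of Polycomb had a log2 fold change of -0.76, SIAH1 of -0.34 and FBXL14 of -0.24, all past the test.

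Of 13 proteases and partners of EPCAM 12 were tested, 6 rose and 2 fell, with a median of 0.11. CD44, a partner of EPCAM at the membrane, had 12, 10 and 9 counts in untreated and 34, 34 and 36 in VPA-treated libraries and rose 3.06-fold (adjusted p = 7.83e-06 in edgeR). CD9, a tetraspanin, rose 2.16-fold, and the secretases BACE1 and BACE2 rose 1.67-fold and 1.58-fold. NCSTN, a subunit of the gamma-secretase that cleaves EPCAM, fell by 0.45 on the log2 scale and CTNNB1, which encodes beta-catenin, by 0.37.

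**Figure D5:**
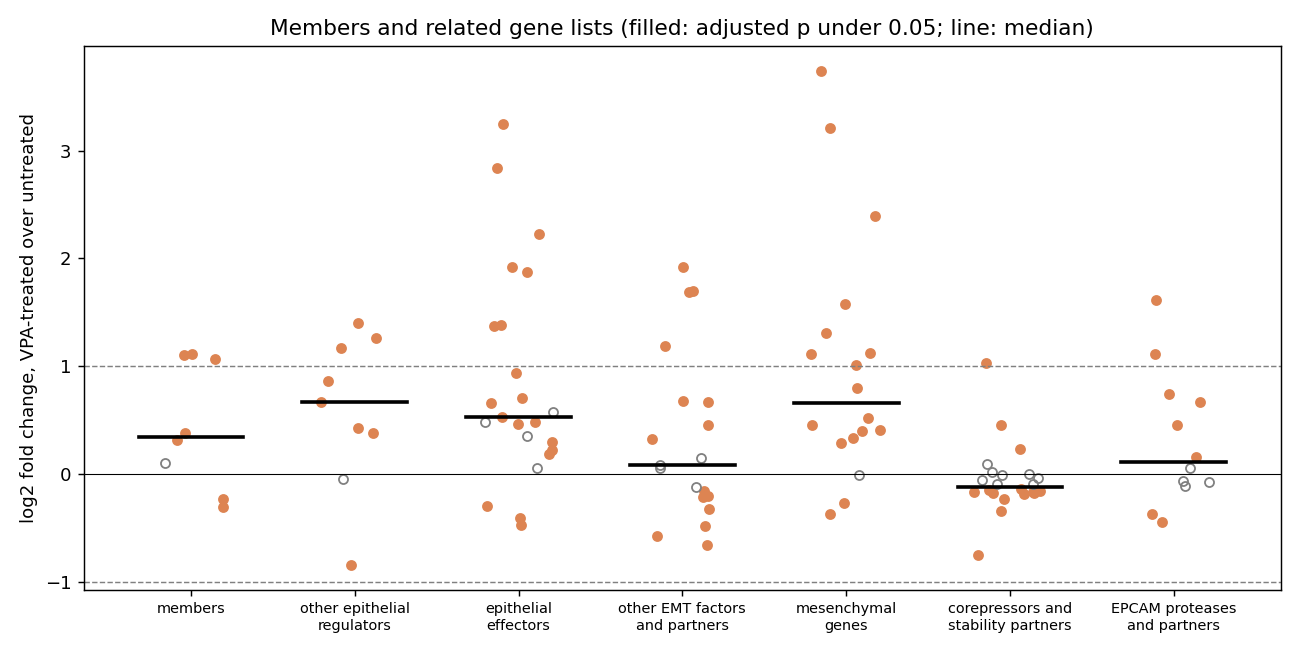
Log2 fold change (vertical axis, VPA-treated over untreated) of the tested genes of the members and of 6 related lists, 1 point per gene, filled where the adjusted p is under 0.05, with a black line at the median and -1 and 1 dashed. The epithelial effector and mesenchymal lists both lie mostly above 0, with medians of 0.53 and 0.66, and the corepressors lie close to 0.

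Nearest protein-coding neighbours within 200 kb were read to set each member beside its surroundings. Their changes are to be read beside the 32.9% of all genes tested that rose and the 30.0% that fell. The neighbours PEDS1-UBE2V1, CLXN, PPDPFL, FERD3L and LOC124901993 had too few counts to be tested. Beside TWIST1, HDAC9 had 17, 40 and 31 counts in untreated and 94, 107 and 85 in VPA-treated libraries and rose by 1.58 on the log2 scale (adjusted p = 7.57e-07 in edgeR), far more than TWIST1. Beside GRHL2, NCALD went from 39, 46 and 39 counts to 126, 151 and 166 and rose by 1.71 (adjusted p = 1.41e-09), while GRHL2 stayed at the floor. The neighbours of the rising GRHL1 fell, KLF11 by 0.54 (adjusted p = 3.26e-07) and TAF1B by 0.26 (adjusted p = 0.000308). Beside EPCAM, CALM2 fell by 0.22, and beside SNAI1, RNF114 fell by 0.12. Beside ESRP1, VIRMA fell by 0.17 and DPY19L4 was at 0.13 (adjusted p = 0.0819), and beside OVOL2, KAT14 was at 0.13 (adjusted p = 0.0847).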

How the data were processed

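RNA-seq libraries of untreated (n = 3) and VPA-treated (n = 3) HEK293T cells were analysed. The deposited values are raw counts per gene symbol, without normalization. To make them, the authors trimmed with SOAPnuke, mapped to hg38 by STAR and counted by HTSeq (2.7.10b and 2.0.1 in the submitters' processing notes). The gene annotation and strand setting of the counting are not given in the sources used here. Reads with several places are not counted, which lowers genes with near-identical copies.

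The test was run in edgeR 4.0.16 under R 4.3.3 (TMM, filterByExpr with a count minimum of 10, robust quasi-likelihood fit, condition as the only term, Benjamini-Hochberg adjustment over 15298 genes). "Rose" and "fell" mean an adjusted p under 0.05, and "called" adds a log2 change of 1 or more in size. Standard errors were obtained as the log2 change over the square root of F. Normalized counts are divided by the effective library size relative to its mean. The summary lines that name no gene were left out (no feature, ambiguous and not unique, 6.80% to 7.69%, 1.97% to 2.10% and 2.81% to 2.92% of the listed total). The fit was tested on simulated data. Alternatives were DESeq2 1.42.0, other scalings, filters and prior count, glmTreat, a replicate block and leaving out each library. Genes named from the lists were up to 4 with the highest and 3 with the lowest log2 fold change past the test and a mean normalized count of 20 or more, plus textbook partners and paralogs. SCRT1, KRT7, KRT19, ALB, CD68, PTPRC, CD3E, VWF, SNORD17 and the HEK293T and fibroblast markers were named outside that rule after their values were seen. Some genes that the rule names are not reported here. The members and lists were chosen with earlier results of these data known. Sequences are from RefSeq, and lengths and overlaps from GENCODE 44. ChIP-seq, Hi-C and imaging data were not analysed here.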

Additional observations from a re-analysis of the deposited data

How the results depend on the processing

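SNAI1, OVOL2, EPCAM and GRHL1 kept their direction and an adjusted p under 0.05 in edgeR or DESeq2 under all 15 alternatives that test against no change. The count of 3 members called higher was 0 with glmTreat, which asks for a fold beyond the threshold, and 2 with a prior count of 2. It was 4 without the filter on low counts. With 1 library left out it was 1 to 3, with 1 without untreated replicate 2. The 5 members that rose were 4 to 5 and the 2 that fell 2 in each case with 1 library left out. The 5 that rose were 4 with DESeq2. They were 6 with library totals, upper quartile, the ribosomal protein scale or no filter. The 2 that fell became 1 with library totals and 0 with the ribosomal protein scale, where SNAI2 was at 0.031. For the related lists, the 25 called higher were 14 where each library had to hold 10 counts or more and 16 with glmTreat. They were 30 without the filter and 23 to 25 with 1 library left out. The 56 that rose were 64 with library totals and 76 with the ribosomal protein scale. They were 44 where each library had to hold 10 counts or more and 53 to 56 with 1 library left out. The 26 that fell were 12 with library totals, 8 with the ribosomal protein scale and 22 to 26 with 1 library left out. Of the neighbours tested 2 rose and 5 fell, where 32.9% of all genes tested rose and 30.0% fell. The 2 that rose were 6 with library totals, 4 with upper quartile and 7 with the ribosomal protein scale. They were 4 where each library had to hold 10 counts or more. The 5 that fell were 2 with library totals and 1 with the ribosomal protein scale. The filter of 10 counts in each library tests fewer genes, 13882 in place of 15298. It also moved the log2 fold changes, for SNAI1 from 1.113 to 1.135 and for ZEB1 from 0.104 to 0.127. The scalings shift all genes. What caused each change in these counts was not tested. With 1 library left out, tried after the data were seen, the log2 change of the ratio stayed between 0.37 and 0.44 for ZEB1 to ZEB2, 1.24 and 1.47 for SNAI1 to SNAI2, 2.23 and 2.34 for CDH1 to CDH2, and 0.43 and 0.69 for ZEB1-AS1 to ZEB1. Depth limits GRHL2 and ESRP1 most, at 7 and 11 counts in all.

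With the replicate number as a block, 3 members were called higher, 5 rose and 2 fell, as without it, and 4 neighbours rose in place of 2. Libraries of the same number deviated from their group means with correlations of 0.20, 0.039 and 0.13, not all above 0.1, so the numbers are not taken to pair the libraries, although each library correlated best with its own number.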
